A study of Mus musculus with 15 samples.

Results

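Elane, Prtn3, Ctsg, Mpo and Ms4a3, genes switched on in granulocyte progenitors, were followed in LSK cells carrying a HOXB4 or a GFP retroviral vector. They were chosen by name, and the probe sets by the array annotation: 5 probe sets, 1 for each gene, among the 45141 on the array, and 5 of the 17097 genes tested. The study sorted LSK cells, the lineage-negative, Sca-1+ and Kit+ cells of bone marrow, among them blood stem cells and multipotent progenitors, from transplanted mice and profiled them on 15 arrays. Values are log2 RMA signals, an array's background-corrected and normalised brightness on a log scale, so that a difference of 1 is a 2-fold change.

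The 5 groups had 3 arrays each. In HOXB4 cells the MSCV vector carried HOXB4 with a yellow fluorescent protein, and these were profiled 6, 12 and 20 weeks after transplantation. In GFP cells the MSCV vector carried green fluorescent protein alone, and these were profiled at 12 and 20 weeks. The groups shared the rest of the procedure: marrow of female C57Bl/6 mice given 5-fluorouracil, retroviral transduction, lethally irradiated C57Bl/6 recipients, and a sort of fluorescent LSK cells without culture. The age of the mice and the number pooled for an array are not given in the sources used here. The 2 vectors also differ in the fluorescent protein, and no GFP arrays from 6 weeks entered these comparisons.

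Primary, or azurophil, granules are the earliest storage granules of the neutrophil lineage and are filled at the promyelocyte stage. Elane, Prtn3 and Ctsg encode neutrophil elastase, proteinase 3 and cathepsin G, serine proteases of the same family that are stored in these granules in active form. Mpo encodes myeloperoxidase, the haem enzyme that makes hypochlorous acid. Transcription of these genes begins in granulocyte-monocyte progenitors, under factors such as C/EBP alpha, PU.1 and Myb, and stops as the cells mature, when genes of the later granules take over. Ms4a3 encodes a membrane protein with several transmembrane stretches and not a granule enzyme, but it marks the same progenitors, so the 5 genes share a stage and not a compartment.

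The bases just before each gene start are shown because the 5 genes moved together on the arrays. They are the 250 bases before the start of transcription in RefSeq on GRCm38.p6, written on the strand of the gene. Capitals mark every match, on either strand, to the letters GAGGAAG (a form of the PU.1 motif), TTGCNNAA (C/EBP), TGTGGT (Runx), CCAAT and TATAAA. The windows are chr10:79886062-79886311 on the plus strand for Elane, chr10:79879417-79879666 on the plus strand for Prtn3, chr14:56102575-56102824 on the minus strand for Ctsg, chr11:87793534-87793783 on the plus strand for Mpo and chr19:11640852-11641101 on the minus strand for Ms4a3.
Elane: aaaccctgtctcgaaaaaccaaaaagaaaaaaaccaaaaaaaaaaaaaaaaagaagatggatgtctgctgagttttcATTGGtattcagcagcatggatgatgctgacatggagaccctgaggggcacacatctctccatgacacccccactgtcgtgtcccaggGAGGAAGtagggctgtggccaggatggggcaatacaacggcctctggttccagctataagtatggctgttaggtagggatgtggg
Prtn3: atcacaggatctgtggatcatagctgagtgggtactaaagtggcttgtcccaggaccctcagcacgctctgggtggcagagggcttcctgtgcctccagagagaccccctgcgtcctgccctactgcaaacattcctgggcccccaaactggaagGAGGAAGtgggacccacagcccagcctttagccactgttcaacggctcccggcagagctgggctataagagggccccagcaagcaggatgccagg
Ctsg: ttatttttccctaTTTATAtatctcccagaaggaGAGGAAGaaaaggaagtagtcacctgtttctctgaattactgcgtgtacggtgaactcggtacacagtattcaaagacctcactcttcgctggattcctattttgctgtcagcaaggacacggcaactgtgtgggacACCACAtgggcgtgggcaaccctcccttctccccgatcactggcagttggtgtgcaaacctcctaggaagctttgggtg
Mpo: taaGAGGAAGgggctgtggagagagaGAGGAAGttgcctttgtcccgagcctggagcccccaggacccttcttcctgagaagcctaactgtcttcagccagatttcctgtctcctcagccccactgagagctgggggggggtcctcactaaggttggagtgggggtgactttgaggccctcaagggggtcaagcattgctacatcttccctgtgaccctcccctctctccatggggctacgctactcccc
Ms4a3: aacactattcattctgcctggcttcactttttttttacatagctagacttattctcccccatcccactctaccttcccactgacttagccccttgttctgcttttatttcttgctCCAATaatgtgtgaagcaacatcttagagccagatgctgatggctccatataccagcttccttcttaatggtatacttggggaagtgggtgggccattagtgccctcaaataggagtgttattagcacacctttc

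The PU.1 letters GAGGAAG occurred in 4 of the 5 windows, those of the 3 proteases and of Mpo, against 10.7% of the 32536 promoter windows of the same length. Every one of these matches lay on the strand of the gene. The match began 85 bases before the start in Elane and 95 bases before it in Prtn3, the adjacent gene on chromosome 10, and each was followed closer to the start by AACGG, a form of the Myb letters AACNG. In Ctsg it began 216 bases before the start, and Mpo had matches 247 and 224 bases before it. The Ms4a3 window held no match to GAGGAAG. The Myb letters AACNG, which are not in capitals because 74.1% of all windows hold them, were present in the windows of Elane, Prtn3, Ctsg and Mpo. No window held the C/EBP letters TTGCNNAA (9.57% of all windows), 1 held TGTGGT (Ctsg; 14.0%), 2 held CCAAT (Elane and Ms4a3; 33.8%) and 1 held TATAAA (Ctsg, on the opposite strand; 12.3%). The Myb and other matches did not overlap the PU.1 matches. A match describes letters in the window and is not a binding site, and its absence says only that these letters are not in this window.

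**Figure D1:**
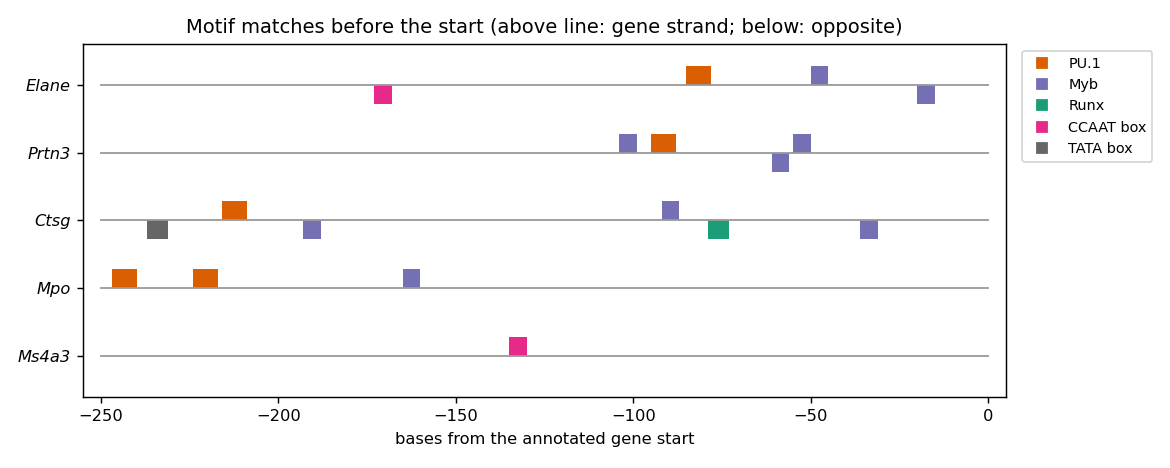
Positions of motif matches in the 250 bases before each gene start; the x axis gives bases from the start, boxes above a line are matches on the strand of the gene and boxes below it matches on the opposite strand. GAGGAAG matches (PU.1) stand in the lines of Elane, Prtn3, Ctsg and Mpo and in no place of the line of Ms4a3.

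All 5 genes gave signals well clear of the array's nonspecific controls. The brightest of 23 such control probe sets lay between 3.4 and 5.19 on the 15 arrays, and the lowest member value on an array was at least 1.98 above the brightest control of that array. The highest signal of any probe set was 13.59 to 13.74, so the Mpo values of GFP cells, up to 13.07, lay near the upper end of the scale. The Gapdh 3' minus 5' signal, a measure of RNA quality, was 1.68 to 3.76 on the HOXB4 arrays of 6 weeks, 0.93 to 1.02 and 1.21 to 2.02 on those of 12 and 20 weeks, and 0.81 to 1.25 and 1.0 to 1.37 on the GFP arrays of 12 and 20 weeks. Of 5 measured LSK genes, Kit (-0.63 ± 0.13, adjusted p = 0.014) and Cd34 (-0.75 ± 0.13, adjusted p = 0.00731) were lower in HOXB4 cells at 12 weeks. Flt3 (1.41 ± 0.33, adjusted p = 0.0128) and Slamf1 (1.8 ± 0.5, adjusted p = 0.0377) were higher at 20 weeks, and Procr was not called. Leaving out 1 array ended the call for Kit without any of 3 arrays (adjusted p up to 0.0723), for Flt3 without GFP replicate 1 or 2 (up to 0.0768) and for Slamf1 without any of 5 (up to 0.118). The mean level of the 5 was 7.77 to 7.87 on HOXB4 against 7.97 to 8.11 on GFP arrays at 12 weeks, and 7.38 to 8.24 against 7.11 to 7.35 at 20 weeks. The part of these differences in the results for the granule genes was not tested, and Ly6a, which encodes Sca-1, was not analysed here. The labels do not say that arrays of a group came from separate mice, so the p-values reflect the spread of these arrays alone, and that spread may be technical.

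Elane, neutrophil elastase, had log2 signals of 9.58, 10.71 and 8.94 on the HOXB4 arrays at 6 weeks, of 8.67, 9.15 and 9.49 at 12 weeks and of 9.35, 7.44 and 7.62 at 20 weeks, each in the order of replicates 1 to 3. On the GFP arrays it was at 11.2, 11.38 and 11.28 at 12 weeks and at 12.04, 12.08 and 11.6 at 20 weeks. Every GFP array was above every HOXB4 array. The HOXB4 arrays spread most at 20 weeks, where replicate 1 stood apart above the other two, while the 3 GFP arrays at 12 weeks lay within 0.09 (SD).

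Prtn3, proteinase 3, was at 8.13, 9.97 and 9.34 in HOXB4 cells at 6 weeks, at 8.39, 8.87 and 9.09 at 12 weeks and at 8.54, 7.5 and 7.37 at 20 weeks. In GFP cells it was at 10.59, 10.46 and 11.07 at 12 weeks and at 11.87, 11.9 and 11.09 at 20 weeks. Again no GFP array overlapped a HOXB4 array, and replicate 1 was the highest of the HOXB4 arrays at 20 weeks. Replicate 3 of GFP cells at 20 weeks was the lowest of its group and close to the highest at 12 weeks.

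Ctsg, cathepsin G, was at 9.95, 10.89 and 10.29 in HOXB4 cells at 6 weeks, at 9.25, 9.5 and 9.67 at 12 weeks and at 9.31, 8.35 and 8.9 at 20 weeks. In GFP cells it was at 11.13, 11.27 and 11.4 at 12 weeks and at 11.99, 12.06 and 11.4 at 20 weeks. The GFP and HOXB4 arrays did not overlap, with the 6-week HOXB4 replicate 2 nearest to the GFP arrays.

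Mpo, myeloperoxidase, was at 11.62, 12.57 and 11.86 in HOXB4 cells at 6 weeks, at 11.52, 11.54 and 11.8 at 12 weeks and at 11.37, 10.05 and 11.01 at 20 weeks. In GFP cells it was at 12.55, 12.62 and 12.74 at 12 weeks and at 13.07, 13.04 and 12.68 at 20 weeks. At 12 and at 20 weeks the vectors did not overlap, but the 6-week HOXB4 replicate 2 reached the lowest GFP array of 12 weeks.

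Ms4a3, the membrane protein of the same progenitors, was at 8.06, 8.94 and 8.44 in HOXB4 cells at 6 weeks, at 7.2, 7.58 and 7.74 at 12 weeks and at 7.57, 6.47 and 6.22 at 20 weeks. In GFP cells it was at 9.33, 9.37 and 9.59 at 12 weeks and at 10.42, 10.52 and 9.51 at 20 weeks. The arrays of the vectors did not overlap, and replicate 3 of GFP cells at 20 weeks was again the lowest of its group.

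**Figure D2:**
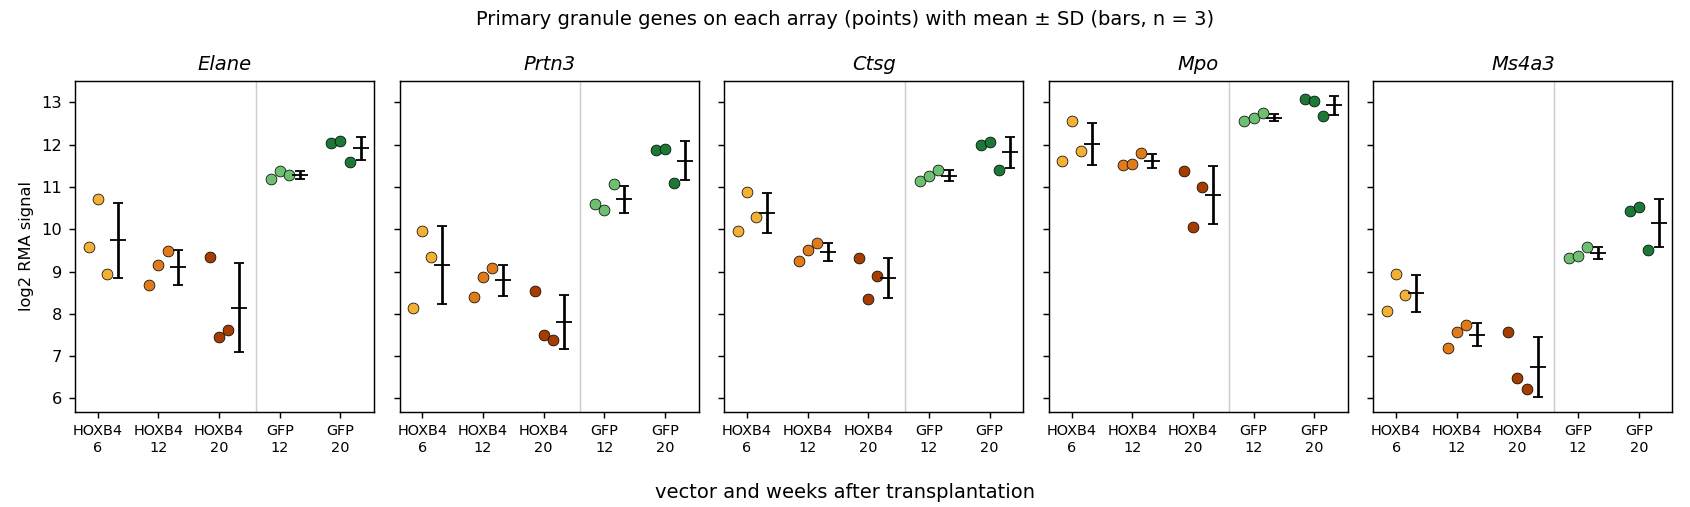
Log2 RMA signal (y axis) of each gene on each array (points) by vector and weeks after transplantation (x axis), with the mean and SD of 3 arrays as bars. In all 5 panels the group means fall in the order GFP 20 weeks, GFP 12 weeks, HOXB4 6 weeks, HOXB4 12 weeks and HOXB4 20 weeks.

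The order of the group means was the same for all 5 genes: GFP at 20 weeks, GFP at 12 weeks, then HOXB4 at 6, 12 and 20 weeks. For Elane the means were 11.91 ± 0.27, 11.29 ± 0.09, 9.74 ± 0.89, 9.1 ± 0.41 and 8.14 ± 1.05 in that order (SD, n = 3). For Ms4a3 they were 10.15 ± 0.56, 9.43 ± 0.14, 8.48 ± 0.44, 7.51 ± 0.28 and 6.75 ± 0.71. Neighbours in this order within a vector did not pass the test, as given below, and HOXB4 at 6 weeks against GFP at 12 weeks was not tested because it mixes vector and time. When the 5 genes were each scaled to an SD of 1 and averaged, the 9 HOXB4 arrays ranged from -1.72 to 0.43 and the 6 GFP arrays from 0.67 to 1.41. Replicate 2 at 6 weeks was the highest HOXB4 array, and replicates 2 and 3 at 20 weeks were the lowest.

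At 12 weeks, the 3 proteases and Ms4a3 were lower in HOXB4 than in GFP cells by 3.46-fold to 4.54-fold, and Mpo was at a value 2.02-fold lower that did not pass the test. Elane differed by -2.18 ± 0.45 (SE; 4.54-fold, adjusted p = 0.0164), Prtn3 by -1.92 ± 0.41 (3.79-fold, adjusted p = 0.0183) and Ctsg by -1.79 ± 0.26 (3.46-fold, adjusted p = 0.00294). Ms4a3 differed by -1.92 ± 0.33 (3.79-fold, adjusted p = 0.00625). Mpo differed by -1.02 ± 0.28, with a 95% interval of -1.62 to -0.42 and an adjusted p of 0.0583. Thus 4 of the 5 were called lower, against 2.2% of all 17097 genes, with 1.82% called higher (limma with Benjamini-Hochberg adjustment over all genes, called at an adjusted p under 0.05). The arrays of the vectors did not overlap for 5 of 5 genes, against 20.5% of all genes in the lower direction. The median difference of the 5 was -1.92, against -0.02 for all genes. The calls of Elane and Prtn3 could be lost with 1 array left out. Elane missed the threshold without any 1 of GFP replicates 1, 2 and 3 or HOXB4 replicates 1 and 2 at 12 weeks (adjusted p 0.0554 to 0.077). Prtn3 missed it without GFP replicate 1 or 3 or HOXB4 replicate 1 or 2 (0.0626 to 0.0854). With 1 array left out the differences ran from -2.38 to -1.97 for Elane and from -2.08 to -1.72 for Prtn3. Mpo passed when only the groups compared were fitted (adjusted p = 0.000378), with array weights (0.00427), with arrays centred on their median (0.049) and without the 6-week HOXB4 replicate 1 (0.0447). The count over all genes rose from 688 to 2593 on the groups compared alone and to 2791 with array weights.

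At 20 weeks, all 5 genes were lower in HOXB4 than in GFP cells, by 4.35-fold for Mpo up to 14.1-fold for Prtn3. Prtn3 differed by -3.81 ± 0.41 (95% interval -4.68 to -2.94, adjusted p = 4.51e-05) and Elane by -3.77 ± 0.45 (-4.73 to -2.8, 13.6-fold, adjusted p = 0.000123). Ms4a3 differed by -3.4 ± 0.33 (10.5-fold, adjusted p = 2.04e-05) and Ctsg by -2.97 ± 0.26 (7.82-fold, adjusted p = 9.62e-06). Mpo differed by -2.12 ± 0.28 (adjusted p = 0.000248). So 5 of 5 were called lower, against 5.18% of all genes, with 3.77% called higher, and the arrays did not overlap for 5 of 5, against 12.5% of all genes in that direction. The median difference was -3.4, against 0.02 for all genes. Ranked from the most negative difference of the 17097 genes, Prtn3 stood at rank 10, Elane at 11, Ms4a3 at 19, Ctsg at 29 and Mpo at 84. In sorted bulk cells, fewer cells of a type and less RNA per cell cannot be told apart.

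Averaged over 12 and 20 weeks, Elane was lower by a log2 difference of -2.98 ± 0.32 (7.87-fold), Prtn3 by -2.87 ± 0.29 (7.3-fold), Ms4a3 by -2.66 ± 0.23 (6.32-fold), Ctsg by -2.38 ± 0.18 (5.2-fold) and Mpo by -1.57 ± 0.2 (2.96-fold). All 5 were called lower (adjusted p 5.72e-06 for Ctsg to 0.000137 for Mpo), against 9.16% of all genes (1566 lower and 1059 higher, or 1936 lower and 810 higher with arrays centred on their median). Among the proteases the smallest standard error was that of Ctsg.

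**Figure D3:**
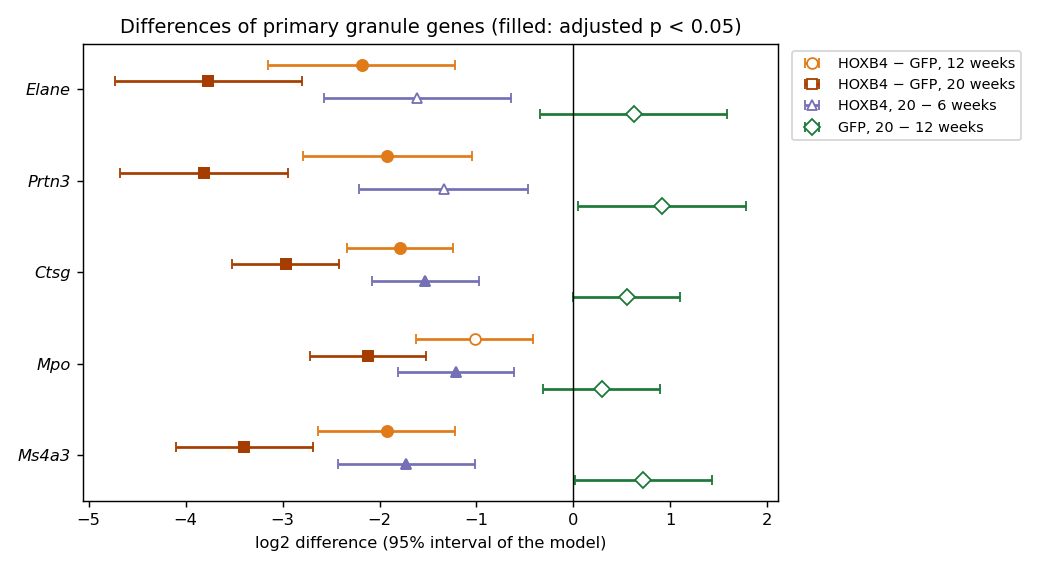
Log2 differences (x axis) of each gene (y axis) with the 95% interval of the model, for HOXB4 minus GFP at 12 and at 20 weeks, HOXB4 at 20 minus 6 weeks and GFP at 20 minus 12 weeks; filled markers passed an adjusted p of 0.05. The 20-week differences between vectors lie between -3.81 and -2.12, and all 5 values of GFP cells over time lie above 0 with open markers.

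Whether the gap between vectors widened with time was asked of the difference between the 20-week and the 12-week effect. It was below 0 for all 5 genes, but 0 of 5 passed (limma, adjusted over all genes), where 0.509% of all genes did (0.386% in the lower direction). Prtn3 gave -1.89 ± 0.57 (adjusted p = 0.202), Elane -1.58 ± 0.64 (0.4), Ms4a3 -1.47 ± 0.47 (0.222), Ctsg -1.18 ± 0.36 (0.213) and Mpo -1.1 ± 0.4 (0.314). The unadjusted p was under 0.05 for all 5, from 0.00512 for Prtn3 to 0.0259 for Elane. Ms4a3 passed without replicate 1 of HOXB4 at 20 weeks (-1.88, adjusted p = 0.0373), and with array weights Prtn3, Ctsg, Mpo and Ms4a3 passed (adjusted p 0.0207 to 0.045). Array weights also raised the count over all genes, from 87 to 563.

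Within GFP cells the 5 genes were higher at 20 than at 12 weeks by values that did not pass the test: 0.91 ± 0.41 for Prtn3, 0.72 ± 0.33 for Ms4a3, 0.62 ± 0.45 for Elane, 0.55 ± 0.26 for Ctsg and 0.29 ± 0.28 for Mpo (0 of 5 called, against 2.37% of all genes, 1.23% higher; adjusted p 0.347 to 0.772, and unadjusted p under 0.05 for Prtn3, Ctsg and Ms4a3). With array weights Prtn3, Ctsg and Ms4a3 passed (adjusted p 0.0217 to 0.0325), while the count over all genes rose from 406 to 1892. Within HOXB4 cells each step in time gave values below 0 and no call. From 6 to 12 weeks they ran from -0.97 to -0.36 (0 of 5 called, against 1.57% of all genes, 54 lower and 214 higher, or 72 and 154 after quantile normalization), and from 12 to 20 weeks from -0.98 to -0.62 (0 of 5, against 0.252%). The Gapdh 3' minus 5' signal was higher on the HOXB4 arrays of 6 weeks (1.68 to 3.76) than on those of 12 weeks (0.93 to 1.02), and its part in the values from 6 to 12 weeks was not tested. Prtn3 from 6 to 12 weeks was at 0.05 without replicate 2 at 6 weeks, the highest array of that group.

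Over the whole span from 6 to 20 weeks, 3 of the 5 genes fell in HOXB4 cells, against 1.36% of all genes called lower (232 lower and 564 higher, or 329 lower and 402 higher after quantile normalization). Ms4a3 fell by 1.73 ± 0.33 (adjusted p = 0.0112), Ctsg by 1.53 ± 0.26 (adjusted p = 0.00673) and Mpo by 1.21 ± 0.28 (adjusted p = 0.027). Elane was at -1.61 ± 0.45 (adjusted p = 0.0579) and Prtn3 at -1.34 ± 0.41 (adjusted p = 0.0749). These calls rest on the spread of all 15 arrays: fitted on the groups compared alone, 0 of 5 passed, where 1 of all genes did. Mpo missed the threshold without replicate 2 at 6 weeks (adjusted p = 0.0622) or replicate 2 at 20 weeks (0.0738), and 5 of 5 passed without replicate 1 at 20 weeks. The Gapdh 3' minus 5' signal was 1.68 to 3.76 at 6 and 1.21 to 2.02 at 20 weeks, and its part in these values was not tested. No GFP arrays of 6 weeks were analysed here to set beside this span.

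Among the genes that process, sort and restrain the granule proteins, Slpi, Lyst, Calr, Ctsc, Serpinb1a and G6pc3 were called lower at 20 weeks. Of 16 measured of 18 listed, 1 was called lower and 0 higher at 12 weeks (6.25% lower, against 2.2% of all genes; median -0.18), and 6 lower and 0 higher at 20 weeks (37.5%, against 5.18%; median -0.34). Ctsc, the dipeptidyl peptidase that activates the serine proteases, was lower at 20 weeks by -1.11 ± 0.26 (adjusted p = 0.0135), a call lost without GFP replicate 2 (adjusted p = 0.0572) or HOXB4 replicate 3 (0.0542) at 20 weeks and not made on the other 2 probe sets. Slpi, a secreted inhibitor of elastase and cathepsin G, was lower at 20 weeks by -2.52 ± 0.38 (adjusted p = 0.000717), and Serpinb1a, an intracellular inhibitor of the same proteases, by -0.75 ± 0.17 (adjusted p = 0.0136), without a call on the other probe set at that time or without GFP replicate 1 (adjusted p = 0.0669) or 2 (0.0749). Lyst, the trafficking protein whose loss gives giant granules, was lower at 20 weeks by -2.09 ± 0.21 (adjusted p = 2.77e-05) on its brightest probe set, with -1.72 (adjusted p = 0.00223) and -0.68 (adjusted p = 0.0687, not called) on the other 2, and Calr, a chaperone of newly made Mpo, by -0.94 ± 0.19 (adjusted p = 0.00551). G6pc3, a glucose-6-phosphatase needed for neutrophil survival, was lower at both times (-0.7 at 12 and -0.82 at 20 weeks), although the 12-week call was lost without any 1 of the 6 arrays (adjusted p 0.0724 to 0.127). Srgn, the proteoglycan core that packs elastase, was at -0.17 and -0.13, and Cst7, an inhibitor of Ctsc, at 0.54 and 1.05, neither called.

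Among other enzymes of primary granules or lysosomes, Gusb was called lower at both times and Lyz2, Hexa and Man2b1 at 20 weeks. Of 10 measured of 14 listed, 1 was called lower at 12 weeks (10%, against 2.2% of all genes; median -0.07) and 4 at 20 weeks (40%, against 5.18%; median -0.35), with 0 higher at either time. Gusb, beta-glucuronidase, was lower at both times (-0.87 ± 0.15, adjusted p = 0.00734, and -1.07 ± 0.15, adjusted p = 0.000449) on its brightest probe set, while its other was at -0.71 at 12 weeks without a call (adjusted p = 0.082) and lower by -1.58 at 20 weeks (adjusted p = 0.000288). Lyz2, lysozyme, was at 0.35 ± 0.16 at 12 weeks (adjusted p = 0.229) and lower by -2.07 ± 0.16 at 20 weeks (adjusted p = 4.8e-06). Hexa and Man2b1, lysosomal glycosidases, were lower at 20 weeks by -1.2 ± 0.17 and -0.84 ± 0.14. Prss57 and Bpi, further primary granule proteins, were not analysed here.

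Transcription factors of the granulocyte programme moved in both directions. Of 15 measured of 16 listed, 4 were called lower and 1 higher at 12 weeks (26.7% lower, against 2.2% of all genes; median -0.37), and 7 lower and 3 higher at 20 weeks (46.7% lower, against 5.18%; median -0.33). Cebpa, the factor without which granulocyte-monocyte progenitors do not form, was lower by -1.53 ± 0.23 at 12 weeks (adjusted p = 0.00319) and by -2.69 ± 0.23 at 20 weeks (6.44-fold, adjusted p = 8.93e-06). Gfi1, a repressor required for neutrophils, was lower by -1.2 ± 0.26 and -1.62 ± 0.26, with the 12-week call lost without any 1 of the 6 arrays (adjusted p 0.0517 to 0.0773). Spi1, which encodes PU.1, was at -0.83 ± 0.26 at 12 weeks (adjusted p = 0.0897) and lower by -1.19 ± 0.26 at 20 weeks (adjusted p = 0.00965), or 0.0585 without GFP replicate 2. Myb was at -0.46 ± 0.24 and -0.33 ± 0.24 and was not called at either time.

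Cebpd, another C/EBP family factor, was at -0.6 ± 0.27 at 12 weeks and lower by -2.88 ± 0.27 at 20 weeks (adjusted p = 1.5e-05). Cebpb was lower on its brightest probe set (-0.75 and -1.54) but not called on the other 2, and without 4 of the 6 arrays its 12-week call was lost (adjusted p 0.0511 to 0.0681). Irf8, which favours monocytes over granulocytes, was lower by -0.99 ± 0.25 and -1.7 ± 0.25, with the 12-week call lost without 5 of the 6 arrays (adjusted p 0.0936 to 0.174) and not made on its other probe set (-0.88, adjusted p = 0.0842). The genes called higher were Lef1 at both times (2.82 ± 0.68 and 2.56 ± 0.68), and Gata2 (1.35 ± 0.28) and Runx1 (0.58 ± 0.1) at 20 weeks. These genes were named after their values were seen.

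Other genes of granulocyte-monocyte progenitors were lower more often than not at 20 weeks. Of 12 measured of 16 listed, 3 were called lower at 12 weeks (25%, against 2.2% of all genes; median -0.98) and 8 at 20 weeks (66.7%, against 5.18%; median -1.38), with 0 higher. The haptoglobin gene Hp was lower at 20 weeks by -3.56 ± 0.34 (adjusted p = 1.75e-05), Dmkn, dermokine, by -3.43 ± 0.35 (adjusted p = 2.77e-05), Igsf6, an immunoglobulin-like membrane protein, by -2.98 ± 0.29 (adjusted p = 2.04e-05) and Hk3, a myeloid hexokinase, by -2.59 ± 0.32 (adjusted p = 0.000139). The Dmkn mean with HOXB4 at 20 weeks, 3.99, was no higher than the brightest nonspecific controls of those arrays (4.25 to 4.43). At 12 weeks Igsf6 was lower by -1.27 ± 0.29 (adjusted p = 0.0252), a call lost without any 1 of the 6 arrays (0.0626 to 0.103).

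The genes of the later granule list were mostly not called at 12 weeks and mostly lower at 20 weeks. The list also holds neutrophil genes that do not encode granule contents, such as Mrgpra2b. Of 18 measured of 20 listed, 2 were called lower and 1 higher at 12 weeks (11.1% lower, against 2.2% of all genes; median 0.55), and 15 lower and 0 higher at 20 weeks (83.3% lower, against 5.18%; median -2.71). Over 17 alternatives the number called in either direction ran from 0 to 11 at 12 weeks and from 10 to 15 at 20 weeks. Camp, the cathelicidin of specific granules, was higher at 12 weeks by 2.37 ± 0.55 (adjusted p = 0.0264; named after its value was seen) and lower at 20 weeks by -2.29 ± 0.55 (adjusted p = 0.016). Fcnb, ficolin B, was at 0.48 ± 0.31 and then lower by -3.52 ± 0.31, and Cybb, the heavy chain of the phagocyte oxidase, at 0.62 ± 0.34 and then lower by -2.95 ± 0.34. Pglyrp1, a peptidoglycan-binding protein, and Mrgpra2b, a Mas-related G protein-coupled receptor, were lower at both times (-1.32 and -1.6 at 12 weeks, -3.65 and -4.86 at 20 weeks); the 12-week calls were lost without 4 arrays for Pglyrp1 (adjusted p 0.0585 to 0.0941) and without 3 for Mrgpra2b (0.0544 to 0.0688). The Mrgpra2b mean with HOXB4 at 20 weeks, 4.4, lay among the brightest nonspecific controls of those arrays (4.25 to 4.43).

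The test of the difference between both effects called 9 of the 18 later granule genes lower, against 0.386% of all genes. The median was -3.68, against 0.02 for all genes. In GFP cells 13 of the 18 rose from 12 to 20 weeks, against 1.23% of all genes called higher. The median was 2.88, against -0.04 for all genes. Of the 5 primary granule genes 0 passed there, although all 5 values were above 0. Their unadjusted p in limma was under 0.05 for Prtn3, Ctsg and Ms4a3. Per array, the mean log2 signal of the 18 genes at 12 weeks was 6.13 to 6.59 with GFP and 6.78 to 7.22 with HOXB4, and at 20 weeks 8.57 to 8.72 with GFP and 5.88 to 6.64 with HOXB4. The mean of the 5 primary granule genes was 10.96 to 11.22 and 9.01 to 9.56 at 12 weeks, and 11.26 to 11.92 and 7.96 to 9.23 at 20 weeks. At 12 weeks the HOXB4 arrays were thus above the GFP arrays for the later list and below them for the primary genes.

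**Figure D4:**
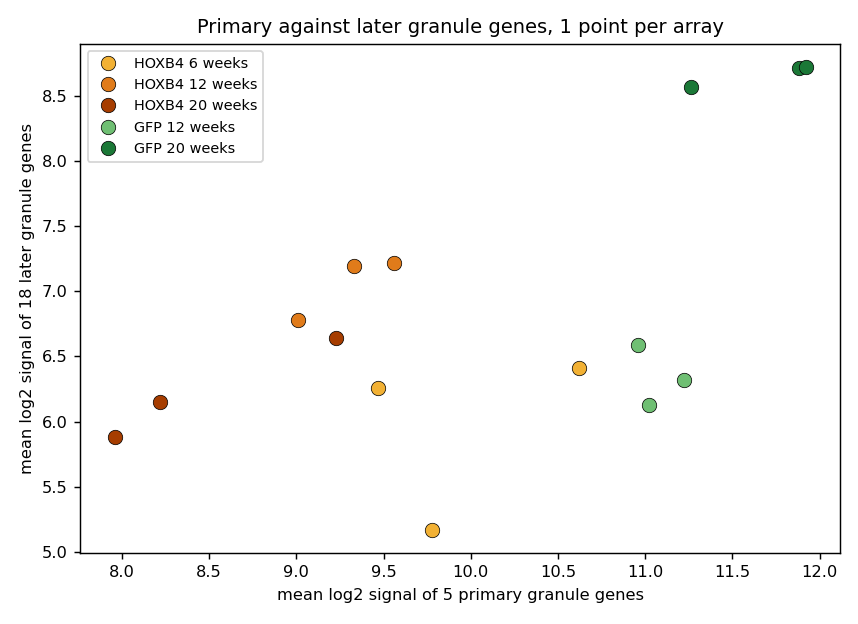
Mean log2 signal of the 5 primary granule genes (x axis) against that of 18 later granule genes (y axis), 1 point per array, coloured by group. The GFP arrays at 12 weeks lie at 10.96 to 11.22 on x and 6.13 to 6.59 on y, and the GFP arrays at 20 weeks at 11.26 to 11.92 and 8.57 to 8.72.

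Among relatives by sequence family, Mcpt8 and Epx were lower at both times. Of 16 measured of 18 granzymes and mast cell proteases, the family of Ctsg, 1 was called lower and 0 higher at each time (6.25%, against 2.2% and 5.18% of all genes; medians 0.15 and 0.1). It was Mcpt8, a basophil protease, at -1.58 ± 0.38 at 12 and -1.69 ± 0.38 at 20 weeks. Its call was lost without any 1 of the 6 arrays at 12 weeks (adjusted p 0.0617 to 0.129) and without GFP replicate 1 at 20 weeks (0.0525). Gzmb, a granzyme, was at 1.31 ± 0.45 at 20 weeks (adjusted p = 0.0918). Among 3 measured peroxidase relatives of Mpo, Epx, eosinophil peroxidase, was lower by -2.75 ± 0.66 (adjusted p = 0.0321) and -2.88 ± 0.66 (adjusted p = 0.0126). The Epx call was lost without 5 of the 6 arrays at 12 weeks (adjusted p 0.0689 to 0.132) and without GFP replicate 1 or HOXB4 replicate 2 or 3 at 20 weeks (0.0519 to 0.0599). Lpo, lactoperoxidase, was at -0.69 and -0.68 and Pxdn, peroxidasin, at 0.07 and 0.11, neither called.

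Of the 16 other Ms4a genes measured, 1 was called lower and 1 higher at 12 weeks (6.25% lower, against 2.2% of all genes; median 0.1), and 4 lower and 1 higher at 20 weeks (25% lower, against 5.18%; median -0.11). Ms4a2, the beta chain of the high-affinity IgE receptor of mast cells and basophils, was the one called higher, by 2.04 ± 0.41 (adjusted p = 0.0133) and 3.45 ± 0.41 (10.9-fold, adjusted p = 0.000104). Its 12-week call was lost without 4 of the 6 arrays (adjusted p 0.0507 to 0.0689) and not made on its other probe set (1.96, adjusted p = 0.0627). Ms4a6c was lower by -1.46 ± 0.29 and -2.9 ± 0.29 on its brightest probe set. On its other it was not called, at 0.66 at 12 weeks, the opposite sign, and -0.61 at 20 weeks. The 12-week call of the brightest probe set was lost without 3 arrays (adjusted p 0.0542 to 0.074). At 20 weeks Ms4a4c was lower by -2.61 ± 0.18 (adjusted p = 2.51e-06) and Ms4a6b by -2.31 ± 0.35 (adjusted p = 0.000705).

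**Figure D5:**
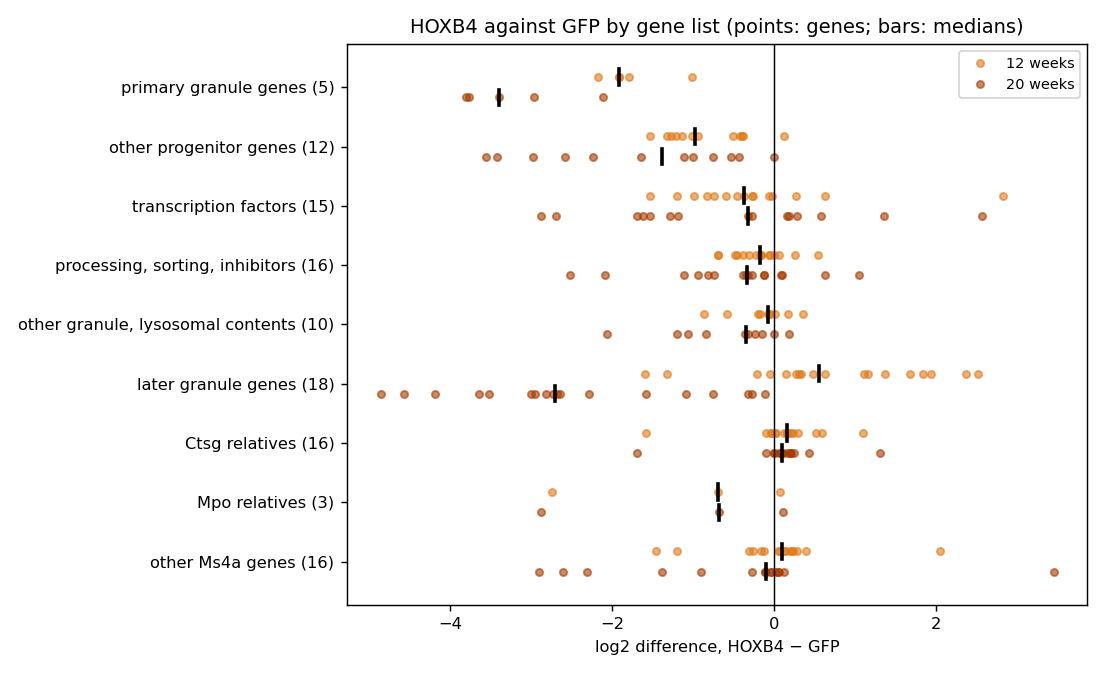
Log2 difference of HOXB4 minus GFP (x axis) for each measured gene (points) of each list (y axis, number of genes in brackets) at 12 and at 20 weeks, with list medians as bars. The primary granule genes have medians of -1.92 and -3.4, and the later granule genes of 0.55 and -2.71.

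Marker genes of other blood cells moved with the vectors too. Of all genes, 2.2% were called lower and 1.82% higher at 12 weeks, and 5.18% lower and 3.77% higher at 20 weeks. Of 9 measured mature neutrophil markers, 0 were called lower and 1 higher at 12 weeks, and 7 lower and 0 higher at 20 weeks; all 9 are also in the later granule list. Their mean log2 level at 12 weeks was 7.42 to 7.91 on HOXB4 arrays and 6.21 to 6.82 on GFP arrays, opposite in direction to the primary granule genes. At 20 weeks it was 6.31 to 7.21 with HOXB4 and 8.74 to 8.87 with GFP, in the same direction, and its part in the 20-week result was not tested. Of 10 monocyte and macrophage markers, 1 was called lower at 12 weeks and 6 at 20 weeks, with means of 5.6 to 6.02 against 6.42 to 6.57 and of 5.58 to 5.95 against 7.23 to 7.34. The 3 eosinophil markers were lower in 2 and 3 cases, at 5.62 to 5.92 against 7.36 to 8.97 and at 4.45 to 7.77 against 7.99 to 9.12.

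B cell markers moved the other way: 4 of 5 measured were called higher in HOXB4 cells at 12 weeks and 1 at 20 weeks. The shares of all genes called higher were 1.82% and 3.77%. The B cell markers were at 7.75 to 8.33 against 5.68 to 5.86 and at 8.09 to 8.95 against 6.31 to 8.19. Of 5 megakaryocyte markers, 2 and 4 were called higher, at 7.85 to 7.95 against 7.08 to 7.38 and at 7.24 to 8.22 against 5.61 to 6.25. Of 4 mast cell and basophil markers, 1 was lower and 1 higher at 12 weeks and 1 lower and 2 higher at 20 weeks. The shares of all genes called lower were 2.2% and 5.18%. T cell markers (5) and erythroid markers (3) gave 0 calls at either time, by limma with adjustment over all genes. The part of these cells in the results for the 5 genes was not tested.

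Across the 15 arrays, the 5 genes tracked each other closely, with Pearson correlations between pairs of 0.94 (Prtn3 with Mpo) to 0.988 (Ctsg with Ms4a3). The genes outside the 5 whose pattern was most like their scaled mean were Ap3s1 (0.966), Atp8b4 (0.957), Cebpa (0.955), Trem3 (0.953) and Plac8 (0.952). These correlations describe 15 arrays that share the vector and time groups. The profile of the 5 genes separates the vectors, so choosing genes by likeness to it largely sets the direction of their differences. The tests of genes chosen in this way describe them and are not separate evidence. Ap3s1, a small subunit of the AP-3 sorting adaptor, had means at 12 weeks of 9.96 ± 0.09 with GFP and 9.11 ± 0.14 with HOXB4, and at 20 weeks of 10.63 ± 0.37 and 8.91 ± 0.32 (SD, n = 3). It was lower at 20 weeks by -1.72 ± 0.22 (adjusted p = 0.000164) and at 12 weeks by -0.84 ± 0.22 (adjusted p = 0.0424), the latter call lost without any 1 of the 6 arrays (0.0857 to 0.154). Ap3b1, another AP-3 subunit from the list of sorting genes, named after its value was seen, was at -0.31 and 0.08 and was not called.

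Atp8b4, a phospholipid flippase, was lower at 20 weeks by -2.09 ± 0.27 (adjusted p = 0.00018) and at -0.92 ± 0.27 at 12 weeks (adjusted p = 0.0686). Its other probe set was called at both times when all probe sets were tested (-1.47 and -2.02). Trem3, a myeloid receptor, was lower by -1.26 ± 0.31 (adjusted p = 0.0376) and -1.98 ± 0.31 (adjusted p = 0.000975), with the 12-week call lost without any 1 of the 6 arrays (0.059 to 0.158). Its means with HOXB4, 4.61 and 4.27, lay near the brightest nonspecific controls of those arrays (4.06 to 4.42 and 4.25 to 4.43). The part of background in the size of these differences was not tested. Plac8, a small cysteine-rich protein, was at -0.43 ± 0.16 at 12 weeks and lower by -1.01 ± 0.16 at 20 weeks (adjusted p = 0.0008). The nearest to single genes were Ly6c1 (0.949) and Hp (0.946) for Elane, Trem3 (0.974) and Atp8b4 (0.972) for Prtn3, Ap3s1 (0.969) and Cebpa (0.966) for Ctsg, Mt1 (0.943) and Atp8b4 (0.94) for Mpo, and Cebpa (0.959) and Tfec (0.958) for Ms4a3. The value of Mt1 is that of its brightest probe set, at -1.28 at 12 and -2.89 at 20 weeks. Its other probe set was at -0.05 and -0.29 and was not called.

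Of the 40 measured genes within 5 places on either side of the 5 on the chromosome, 4 were called lower and 1 higher at 12 weeks (10% lower, against 2.2% of all genes; median -0.04), and 7 lower and 1 higher at 20 weeks (17.5% lower, against 5.18%; median -0.02). Next to Prtn3 and Elane on chromosome 10, Plppr3, a phospholipid phosphatase-related membrane protein, was lower at both times (-1.32 ± 0.3, adjusted p = 0.0244, and -1.77 ± 0.3, adjusted p = 0.00161), with the 12-week call lost without any 1 of the 6 arrays (0.0539 to 0.0944). On the other side Med16, a Mediator subunit, was at -0.3 and -0.05 and was not called. Further out, Palm was lower at 20 weeks (-1.23 ± 0.22) and Wdr18 at both times on its brightest probe set (-0.68 and -0.8) but not on its other 2, and without 5 of the 6 arrays its 12-week call was lost (0.0511 to 0.0882).

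Among measured genes, Ctsg, on chromosome 14, lies between Mcpt8, which was lower, and Gzme, which was at 0.01 and 0.0. Mpo, on chromosome 11, lies between 1110028F11Rik (-0.14 and 0.11, not called) and Lpo, with Epx further on. Ms4a3 lies between Ms4a2, which was higher, and Oosp2, an oocyte protein gene (0.21 and -0.09, not called). Beyond Oosp2, Oosp1 was at 0.29 ± 0.16 at 12 weeks and lower by -1.47 ± 0.16 at 20 weeks (adjusted p = 6.56e-05).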

How the data were processed

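LSK cells were profiled on 15 arrays from 20 ng of total RNA each. The authors' deposited values are log2 signals for which the submitters' processing notes name RMA and Partek 6.5; probe filters and further scaling are not given in the sources used here. Of 45141 probe sets, 28898 carried 1 gene symbol in the platform annotation, 551 carried several and 15692 were not named. For 28689 the symbol was updated through the gene identifier, and 209 kept the annotation's. The brightest probe set of each of 17097 genes was tested. Times follow the sample titles; in the series text the last time is 24 weeks.

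One linear model with a mean per group was fitted to all 15 arrays with limma 3.58.1 in R 4.3.3 (10 residual and 4.55 prior degrees of freedom). In the 8 comparisons p-values were two-sided and adjusted over all genes (Benjamini-Hochberg), and the fit was tested on simulated data. An exact permutation test of 3 arrays against 3 cannot go below 0.1. The number of arrays limits the precision. The labels do not say that replicate numbers pair the arrays. Deviations from the group means correlated between -0.17 and 0.12 for equal numbers and between -0.18 and 0.25 for different ones. With 3 arrays a group these values cannot show whether arrays were paired.

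The genes, lists and tests were chosen with earlier results of these data known. Named genes are the 5 members; up to 4 per list with the smallest p at 20 weeks; Ctsc, Serpinb1a, Srgn, Cst7, Prss57, Bpi, Cebpa, Cebpe, Gfi1, Spi1 and Myb in any case; the 5 genes most correlated with the members' mean and 2 per member; and, of the 5 nearest measured genes on each side, the nearest and those called at 20 weeks. Cebpe was not analysed here. Promoter windows are from RefSeq on GRCm38.p6, matched by symbol for 5 of 5 members. The alternatives were 10 other settings and leaving out each of the 15 arrays in turn.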

Additional observations from a re-analysis of the deposited data

Results flagged for a closer look

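The effect of HOXB4 differed between 20 and 12 weeks for 11 of the named genes, by the test of that difference in limma with adjustment over all genes. Of all genes 0.509% were called, 0.386% in the lower direction. Up to 4 genes per list were named by the smallest p at 20 weeks, which is a part of this difference. That choice favours calls among them, so the 11 do not stand for their lists. Of the 5 primary granule genes 0 were called, all 5 with an unadjusted p under 0.05. Each value is the 20-week difference minus the 12-week difference on the log2 scale, and each was below 0. Among genes of the later granule list it was -4.0 for Fcnb (adjusted p = 0.000733), -3.57 for Cybb (0.0025), -3.26 for the receptor gene Mrgpra2b (0.00254) and -2.33 for Pglyrp1 (0.0181). Among genes of granulocyte-monocyte progenitors it was -2.49 for Dmkn (0.035) and -2.35 for Hp (0.0447). It was -2.42 for Lyz2 (0.000176), -2.27 for Cebpd (0.0122) and -1.91 for Lyst (0.00756). It was -2.35 for Ms4a4c, of the Ms4a family (0.000733), and -1.76 for Oosp1, a neighbour of Ms4a3 (0.00222). These values hold the change from 12 to 20 weeks in GFP cells as well as that in HOXB4 cells. In HOXB4 cells alone that change ran from -1.06 for Fcnb to 0.19 for Ms4a4c, with no call, in all but Oosp1. Oosp1 had means of 5.45 and 4.93 in HOXB4 cells, and of 5.16 and 6.4 in GFP cells. Hp rose in GFP cells by 1.61 ± 0.34 (limma, adjusted p = 0.0201). No group had 4 or more arrays, so single arrays were not tested as outliers.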

How the results depend on the processing

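The 5 primary granule genes stayed lower in HOXB4 cells and past the threshold at 20 weeks in all 17 alternatives and over both times in all 23. At 12 weeks 4 passed, 2 without moderation of the variance, and 2 to 5 with 1 array left out. The difference between both effects passed for 0, with array weights for 4, and with 1 array left out for 0 to 1. With array weights, 3 passed in GFP cells from 12 to 20 weeks and 1 in HOXB4 cells from 6 to 12 weeks, against 0. From 6 to 20 weeks in HOXB4 cells 3 passed, 0 on the groups compared alone, 1 without moderation, and 2 to 5 with 1 array left out. With the replicate number as a block the counts were 4 at 12 and 5 at 20 weeks, and the block changed no call of the 5 genes. The labels tie the samples of a block by this number only. The numbers called in the gene lists, in either direction, moved at 12 weeks over 17 alternatives. They ran from 0 to 6 for the processing and sorting genes (1 in the main fit) and from 1 to 9 for the transcription factors (5). For the other progenitor genes they ran from 1 to 9 (3) and for the later granule list from 0 to 11 (3). The remaining lists stayed within 0 to 4.

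Values close to 0 changed sign. Prtn3 from 6 to 12 weeks ran from -0.87 to 0.05 with 1 array left out. At 12 weeks, with probe sets averaged per gene, 1110028F11Rik was at 0.01 and Gzme at -0.01; Gzme was at -0.05 after quantile normalization, -0.03 with arrays centred, and -0.09 to 0.12 with 1 array left out; Pxdn was at -0.01 after quantile normalization and -0.01 to 0.13 with 1 array left out. At 20 weeks Gzme was at 0.02 with probe sets averaged and -0.08 to 0.09 with 1 array left out, Med16 at 0.0 after quantile normalization, 0.04 with array weights and -0.14 to 0.08 with 1 array left out, and Pxdn at -0.03 to 0.26 with 1 array left out. The cause was not tested.

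Counts over all genes moved by over 1.5 times. At 12 weeks 688 were called, 2593 on the groups compared alone, 308 without moderation and 2791 with array weights; at 20 weeks 1530, and 715 on the groups compared alone. The mean of both times gave 2625, and 4000 with array weights. The difference between effects gave 87, with 183, 22 and 563 under the same 3 settings, and GFP over time 406, with 618, 204 and 1892. In HOXB4 cells, 6 to 12 weeks gave 268 (20 on the groups alone, 22 without moderation, 423 centred, 170 with the block), 12 to 20 weeks 43 (18, 0 without moderation, 20 without the dimmest genes, 108 weighted, 14 with the block) and 6 to 20 weeks 796 (1, 381 without moderation, 231 weighted). With 1 array left out the count between vectors ran from 214 to 863 at 12 weeks and from 798 to 1785 at 20 weeks. For the mean of both times it ran from 1787 to 3044, and for the difference between effects from 38 to 222. In GFP cells it ran from 192 to 511. In HOXB4 cells it ran from 0 to 923 for 6 to 12 weeks, 1 to 101 for 12 to 20 weeks and 397 to 1116 for 6 to 20 weeks.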
